A study of Rattus norvegicus with 11 samples.

Results

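The 8 genes described here are the CXC chemokines that act on neutrophils or come from platelets, with their receptors in the rat: Cxcl1, Cxcl2, Cxcl3, Cxcl6, Ppbp, Pf4, Cxcr1 and Cxcr2. They were taken by symbol from count and FPKM tables of 23781 genes, and all 8 were listed there. The libraries came from the calvaria of 4-month-old Sprague Dawley rats, harvested 6 weeks after a defect spanning the coronal suture and the bone beside it had been made. The defects held a polylactic acid electrospun membrane (PLA, 2 libraries), a gelatin methacryloyl hydrogel (GelMA, 3 libraries), a porous chitosan scaffold (CTS, 3 libraries) or no scaffold (NC, 3 libraries). In all 4 groups the new tissue was digested with collagenase, the cells were fixed and permeabilised, and those sorted as negative for the leukocyte antigen Cd45 were sequenced in bulk. The labels do not say whether the libraries of a group came from separate rats, so p-values measure only the spread between these libraries.

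CXC chemokines are small secreted proteins that guide leukocytes along gradients. Cxcl1, Cxcl2, Cxcl3, Cxcl6 and the processed product of Ppbp carry a Glu-Leu-Arg motif before the first cysteines, and this subgroup draws neutrophils through Cxcr2, a G protein-coupled receptor that couples to Gi proteins. In humans, CXCR1 is the second receptor of the subgroup and binds CXCL6 and CXCL8, and rats have no gene for CXCL8. Pf4, platelet factor 4, lacks the motif, is stored in platelet granules and binds heparin-like sugars, and it is not a ligand of Cxcr2. Macrophages, fibroblasts and endothelium make Cxcl1 and Cxcl2 after signals such as interleukin 1 and tumor necrosis factor, which act in large part through NF-κB. Neutrophils carry most of the Cxcr2 in bone marrow and inflamed tissue.

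The genes lie close together in the rat genome. In the RefSeq annotation of GRCr8, the protein-coding genes on chromosome 14 ran in the order Cxcl2, Cxcl1, a gene with a locus name only, Cxcl3, Pf4, Ppbp and Cxcl6, so 6 of the 7 in that span are members, and Cxcr2 and Cxcr1 were neighbours on chromosome 9. The count tables rest on another assembly, mRatBN7.2. Start-site sequences from RefSeq were matched for 6 of the 8 genes, without Cxcl3 and Pf4. Those of Cxcl1, Cxcl2 and Cxcl6, each called higher in PLA than in NC, and that of Cxcr2, called in no comparison, are shown as the 150 bases before the annotated start, 5′ to 3′ on the strand of the gene. Capitals mark GGG followed after 2 bases of any kind by TTTCC, on either strand, and ATAAAAG, a form of the TATA box. The first pattern (below, the κB letters) resembles the NF-κB consensus but is not its usual spelling. The windows are chr14:17479322-17479471 (minus strand) for Cxcl1, chr14:17467256-17467405 (minus strand) for Cxcl2, chr14:17596418-17596567 (minus strand) for Cxcl6 and chr9:83178495-83178644 (plus strand) for Cxcr2.
Cxcl1: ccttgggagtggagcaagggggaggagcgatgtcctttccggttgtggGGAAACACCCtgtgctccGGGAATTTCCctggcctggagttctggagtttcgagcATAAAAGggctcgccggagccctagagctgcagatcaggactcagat
Cxcl2: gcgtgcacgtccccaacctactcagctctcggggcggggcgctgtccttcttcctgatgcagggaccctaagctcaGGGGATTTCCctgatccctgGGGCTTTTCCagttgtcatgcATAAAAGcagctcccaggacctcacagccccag
Cxcl6: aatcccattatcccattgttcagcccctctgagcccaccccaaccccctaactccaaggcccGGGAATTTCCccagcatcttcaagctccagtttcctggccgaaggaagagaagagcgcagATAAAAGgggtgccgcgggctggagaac
Cxcr2: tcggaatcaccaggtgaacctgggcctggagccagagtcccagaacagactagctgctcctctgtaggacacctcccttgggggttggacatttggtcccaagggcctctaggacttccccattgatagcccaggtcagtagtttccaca

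Within the 250 bases before the start, Cxcl1 held the κB letters at 102 to 93 bases (on the opposite strand) and at 84 to 75 bases before it, Cxcl2 at 74 to 65 and at 54 to 45 bases, and Cxcl6 at 88 to 79 bases. ATAAAAG stood nearer to the start in each of these 3 genes, at 47 to 41, 33 to 27 and 28 to 22 bases. Of 33469 rat promoters of that length, 1.3% held the κB letters on either strand, 5.17% held ATAAAAG and 0.0866% held both. Neither run of letters was found in the windows of Cxcr2 and Cxcr1, and Ppbp held ATAAAAG alone, on the opposite strand 162 to 156 bases before its start. Other spellings of the TATA box were not searched for, and the Ppbp window held TATAAAAA on the strand of the gene. The letters were chosen after the sequences had been read, so the shares hold for these exact letters only. A match is no evidence that a factor binds there.

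Depth was 28377088 to 31290849 counts per library in the scaffold groups and 22509898 to 27522199 in NC. The TMM factors, edgeR's correction for a few genes that take up much of a library, were 0.772 and 0.780 in PLA and 1.08 to 1.14 in GelMA and CTS. In NC they were 1.05, 0.804 and 1.09, the low value being that of replicate 2. NC replicate 2 stood apart from the other NC libraries: it had the highest summed level of 12 fibroblast markers in the series (51883 FPKM after TMM scaling) and the lowest Ptprc. Ptprc, the gene of Cd45, was read in all libraries despite the sort, at 155 and 159 FPKM in PLA, 247 to 300.3 FPKM in GelMA, 217 to 268 FPKM in CTS and 52.7, 248 and 298 FPKM in NC. Neutrophil markers were abundant too, so the libraries held transcripts of blood cells. Whether these came from the sorted cells themselves or from other material was not tested. In bulk libraries, fewer cells of a type and less RNA per cell cannot be told apart. Levels below are the deposited FPKM unless TMM scaling is named, and fold changes come from edgeR's quasi-likelihood test on the counts. A gene was called where its Benjamini-Hochberg adjusted p over 18049 tested genes was under 0.05 and its log2 fold change was beyond 1.

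Cxcl2 was the most abundant of the 8 genes in 9 of the 11 libraries, all but NC replicates 2 and 3, where Cxcl1 was higher. It reached 12151 and 12654 FPKM in PLA, 1656, 1789 and 2607 FPKM in GelMA, 1120, 719 and 861 FPKM in CTS, and 653, 160 and 545 FPKM in NC. The groups stood in steps that did not overlap, with PLA above GelMA, GelMA above CTS and CTS above NC. In PLA this gene alone took 1.34% and 1.40% of all counts, and in the other 9 libraries 0.0177% to 0.288%. Its log2 fold change was 5.18 ± 0.47 (SE) in PLA against NC (adjusted p = 8.97e-05), 3.16 ± 0.43 in PLA against GelMA (adjusted p = 0.00208) and 4.26 ± 0.45 in PLA against CTS (adjusted p = 0.000284). GelMA against NC gave 2.02 ± 0.39 (adjusted p = 0.0114), a call that was lost without GelMA replicate 3 (1.74, adjusted p = 0.0556). The step between CTS and NC was not called, with 0.92 ± 0.38 (adjusted p = 0.387), nor that between CTS and GelMA, with -1.11 ± 0.38 (adjusted p = 0.166). Without NC replicate 2, CTS was called lower than GelMA (adjusted p = 0.00708).

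Cxcl1, which shares receptor and cell sources with Cxcl2, was spread less widely. It was at 3258 and 3246 FPKM in PLA, 1271, 1606 and 1786 FPKM in GelMA, 509, 566 and 729 FPKM in CTS, and 448, 1660 and 691 FPKM in NC. Both PLA libraries were above all others, NC replicate 2 lay among the GelMA libraries, NC replicate 3 lay among those of CTS, and NC replicate 1 lay below them all. After TMM scaling, NC replicate 2 (2063) lay above all GelMA libraries (1111, 1440 and 1595). PLA was higher than CTS by a log2 fold change of 2.91 ± 0.54 (adjusted p = 0.00698) and higher than NC by 2.01 ± 0.53 (adjusted p = 0.0299). Against NC the log2 fold change was 1.93 with any one GelMA or CTS library left out. The adjusted p of 0.0299 was near the threshold, and the call was not stable. Leaving out any one of 8 libraries ended it (PLA replicates 1 and 2, GelMA replicates 1, 2 and 3, CTS replicates 1 and 2, and NC replicate 3; adjusted p = 0.0528 to 0.122), while without NC replicate 2 the fold change was 2.98 (adjusted p = 1.68e-05). It was also lost in a fit of PLA and NC alone (adjusted p = 0.209). PLA against GelMA gave 1.60 ± 0.53 and missed the threshold (adjusted p = 0.0898), which it passed without NC replicate 1 (adjusted p = 0.0329) or NC replicate 2 (adjusted p = 0.000378). GelMA did not differ from NC by this test at 0.41 ± 0.48 (adjusted p = 0.622), and without NC replicate 2 it was higher by 1.38 (adjusted p = 0.00168). CTS against GelMA gave -1.31 ± 0.49 (adjusted p = 0.195), called without NC replicate 2 (adjusted p = 0.00228), and CTS against NC gave -0.91 ± 0.48 (adjusted p = 0.487), which turned to 0.07 without NC replicate 2.

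Cxcl3, a close relative of Cxcl1 and Cxcl2 and a ligand of the same receptor, had a wider range among the scaffolds than either of them. It was at 781 and 753 FPKM in PLA, 124, 139 and 186 FPKM in GelMA, 22.1, 23.1 and 18.7 FPKM in CTS, and 26.5, 50.9 and 22.03 FPKM in NC. PLA and GelMA each stood clear of all other groups, and CTS and NC overlapped. PLA was higher than NC by 4.77 ± 0.44 on the log2 scale (adjusted p = 0.000114), than GelMA by 2.89 ± 0.42 (adjusted p = 0.00271) and than CTS by 5.65 ± 0.46 (adjusted p = 7.94e-05). GelMA was higher than NC by 1.87 ± 0.38 (adjusted p = 0.0140), a call lost without GelMA replicate 2 (adjusted p = 0.0521) or replicate 3 (adjusted p = 0.0688). CTS was lower than GelMA with -2.76 ± 0.39 (adjusted p = 0.0130), lost without GelMA replicates 2 or 3 or CTS replicates 1 or 2 (adjusted p = 0.0546 to 0.0820).

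Cxcl6, a ligand of the same subgroup at a far lower level, was the member with the widest range. It was at 40.1 and 41.0 FPKM in PLA, 32.5, 28.8 and 28.8 FPKM in GelMA, 2.15, 0.711 and 2.58 FPKM in CTS, and 0.210, 0.880 and 0 FPKM in NC. PLA and GelMA lay close together and far above CTS and NC, which overlapped. The log2 fold change against NC was 6.95 ± 1.00 in PLA (adjusted p = 0.00136) and 5.98 ± 0.94 in GelMA (adjusted p = 0.00419), sizes that rest on 49 counts over the 3 NC libraries, and the call in PLA was lost in a fit of PLA and NC alone (adjusted p = 0.0673). PLA was also higher than CTS by 4.96 ± 0.89 (adjusted p = 0.00581). PLA against GelMA was not called at 0.97 ± 0.80 (adjusted p = 0.493), although the PLA libraries were the higher ones. CTS was lower than GelMA with -3.99 ± 0.83 (adjusted p = 0.0399), and this call was lost without any of the PLA, GelMA or CTS libraries (8 in all, adjusted p = 0.0778 to 0.172). CTS against NC gave 1.99 ± 0.86 (adjusted p = 0.404).

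The genes of platelet granules behaved unlike each other. Ppbp, the precursor of the neutrophil-activating peptide of platelets, was at the edge of detection, with 2 and 6 counts in PLA, 12, 5 and 1 in GelMA, 0, 4 and 8 in CTS, and 7, 0 and 6 in NC. These 51 counts are too few for the low-count filter, and no difference was detectable at this depth, where 3 counts correspond to 0.0959 to 0.133 CPM (counts scaled to a common library total). Pf4 was at 36.7 and 39.5 FPKM in PLA, 51.5, 72.8 and 84.6 FPKM in GelMA, 17.2, 16.9 and 13.2 FPKM in CTS, and 18.7, 12.9 and 8.65 FPKM in NC. PLA and GelMA were above CTS and NC in every library. Unlike for Cxcl1, Cxcl2, Cxcl3 and Cxcl6, the highest mean was that of GelMA, although after TMM scaling the lowest GelMA library (45.04) lay below both PLA libraries (47.1 and 51.2). The log2 fold change of Pf4 against NC was 1.82 ± 0.35 in PLA (adjusted p = 0.00650, and 0.0968 in a fit of PLA and NC alone) and 2.15 ± 0.32 in GelMA (adjusted p = 0.00313). PLA was higher than CTS by 1.75 ± 0.34 (adjusted p = 0.00868), lost without PLA replicate 1 (adjusted p = 0.0508) or replicate 2 (adjusted p = 0.0666). CTS was lower than GelMA with -2.09 ± 0.32 (adjusted p = 0.0157), lost without GelMA replicates 2 or 3 or CTS replicates 1 or 2 (adjusted p = 0.0734 to 0.0850). PLA against GelMA gave -0.33 ± 0.35 (adjusted p = 0.597) and CTS against NC gave 0.06 ± 0.32 (adjusted p = 0.963). Summed over 13 markers of platelets and megakaryocytes, the TMM-scaled level was 101 to 116 FPKM in PLA, 35.1 to 46.3 FPKM in GelMA, 44.0 to 65.9 FPKM in CTS and 44.0 to 55.5 FPKM in NC, with Gp1ba and Gp5 at 0 in both PLA libraries. GelMA thus had the highest mean Pf4 and the lowest minimum of this sum, and the part of platelets in the Pf4 level was not tested.

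**Figure D1:**
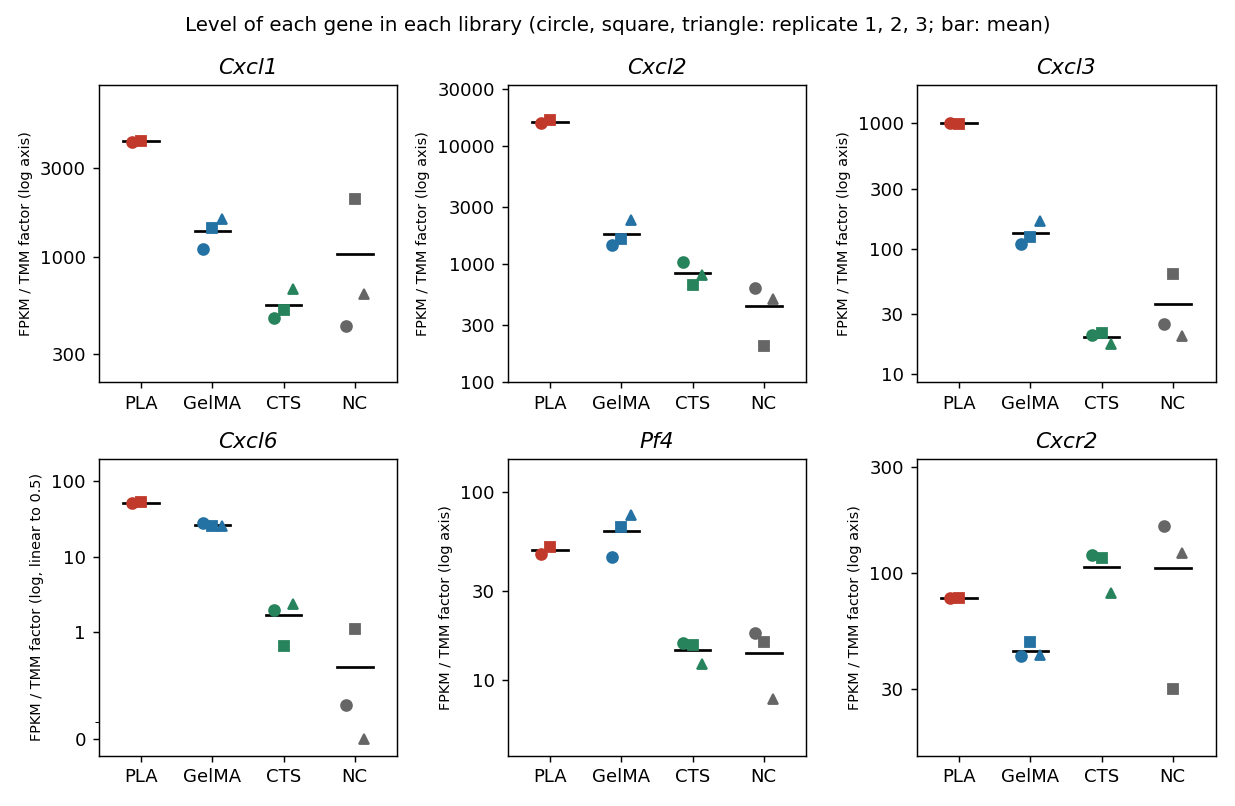
Levels of the 6 genes that passed the low-count filter, as FPKM divided by the TMM factor (y axes on a log scale, that of Cxcl6 linear up to 0.5), in PLA, GelMA, CTS and NC. Points are libraries with a shape for each replicate and bars are group means: the 4 chemokines Cxcl1, Cxcl2, Cxcl3 and Cxcl6 are highest in both PLA libraries, while Cxcr2 ranges most widely in NC, between 30.1 and 163.

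The receptors gave another picture from the ligands. Cxcr1 had 0 counts in 10 of the 11 libraries, which allows up to 3 counts in each, and 4 counts in CTS replicate 3. Cxcr2 was read in all libraries, at 59.9 and 59.5 FPKM in PLA, 48.4, 54.3 and 47.8 FPKM in GelMA, 130, 128 and 87.2 FPKM in CTS, and 171, 24.2 and 133 FPKM in NC. After TMM scaling the means stood in the order CTS (106 ± 21.7 FPKM, SD, n = 3), NC (105 ± 68.3, n = 3), PLA (76.9 ± 0.175, n = 2) and GelMA (44.6 ± 3.58, n = 3). The PLA libraries lay below those of CTS and above those of GelMA, and the NC libraries spanned all other groups. None of the 6 comparisons called Cxcr2. Its log2 fold change was -0.45 ± 0.52 in PLA against NC (adjusted p = 0.605), -1.24 ± 0.46 in GelMA against NC (adjusted p = 0.113) and 0.01 ± 0.45 in CTS against NC (adjusted p = 0.997). Among the scaffolds it was 0.79 ± 0.50 in PLA against GelMA (adjusted p = 0.367), -0.46 ± 0.52 in PLA against CTS (adjusted p = 0.610) and 1.25 ± 0.46 in CTS against GelMA (adjusted p = 0.193). Without NC replicate 2, Cxcr2 was lower in GelMA than in NC by a called -1.68 (adjusted p = 0.000216) and higher in CTS than in GelMA by 1.25 (adjusted p = 0.00124), and PLA against NC was -0.90 (adjusted p = 0.00638), short of the fold threshold.

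Cxcr2 is mainly a gene of neutrophils, so its level is given beside their markers. Over 22 markers, none of them at 0 in all libraries of a group, the summed TMM-scaled level was 13715 and 13965 FPKM in PLA, 6427 to 16379 FPKM in GelMA, 36182 to 60680 FPKM in CTS, and 88104, 11727 and 60931 FPKM in NC. NC replicate 2 was again low beside the other NC libraries. The alarmin genes S100a8 and S100a9 made up 62.0% to 85.8% of this sum. Per 1000 FPKM of these markers, Cxcr2 was at 5.60 and 5.52 in PLA, 2.60, 2.97 and 6.65 in GelMA, 2.39, 1.93 and 2.24 in CTS, and 1.86, 2.56 and 2.01 in NC. Both PLA libraries and GelMA replicate 3 therefore lay above the other 8 libraries in Cxcr2 relative to this sum. The order depended on the marker. Ltf had 3 counts over the PLA libraries and 10 over those of NC, too few for a comparison. Set against each other marker separately, Cxcr2 was higher in both PLA libraries than in all NC libraries for 15 markers and lower for 6. Against Csf3r, for example, Cxcr2 was at 0.328 and 0.376 in PLA, 0.333 to 0.578 in GelMA, 1.14 to 1.75 in CTS and 1.40 to 2.02 in NC, with PLA and GelMA below CTS and NC. Of the 21 neutrophil markers tested, 2 were higher and 10 lower in PLA than in NC, beside 8.32% and 4.01% of all genes. The median log2 fold change of the 21 was -2.37, against -0.11 over all genes. The higher ones were Trem1, an activating receptor of myeloid cells (2.42 ± 0.46, adjusted p = 0.00629), and Csf3r, the receptor of granulocyte colony-stimulating factor (1.88 ± 0.45, adjusted p = 0.0193). Lower ones were led by genes known from maturing neutrophils: Cd177, a surface glycoprotein (-4.44 ± 0.92, adjusted p = 0.00999), Ngp, a granule protein (-4.30 ± 1.01, adjusted p = 0.0178), and Cebpe, a transcription factor of granule genes (-3.67 ± 0.88, adjusted p = 0.0194). In GelMA against NC, 13 were lower and 0 higher, beside 3.21% and 5.03% of all genes. In CTS against NC 0 were called, beside 0.155% higher and 0.0222% lower. PLA against CTS called 2 higher and 9 lower, beside 6.42% and 3.53%. How far the number of neutrophils set the Cxcr2 level was not tested.

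**Figure D2:**
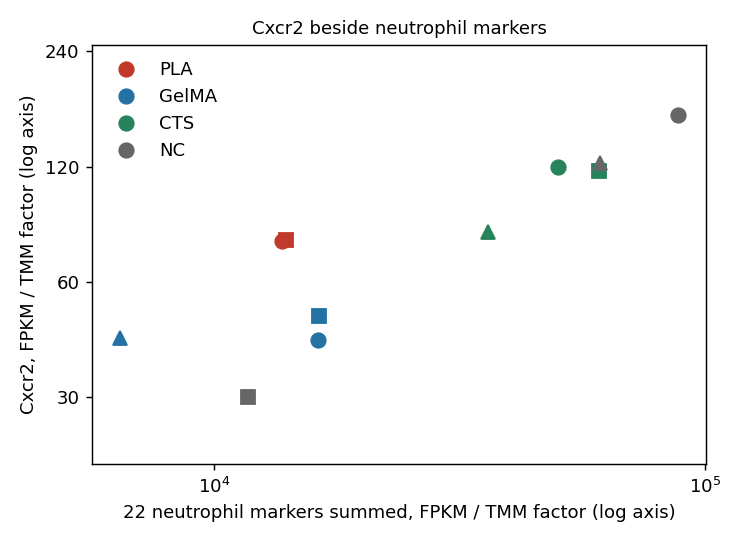
Cxcr2 (y axis) against the sum of 22 neutrophil markers (x axis), both as FPKM divided by the TMM factor on log axes, with 1 point for each of the 11 libraries, coloured by group and shaped by replicate. CTS and NC replicates 1 and 3 lie at high values of both, NC replicate 2 lies with the lowest Cxcr2 (30.1), and the PLA points (76.8 and 77.1) lie above the GelMA points near the same marker sum.

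Counted over the 6 genes tested, PLA against NC called 5 higher and 0 lower, where 8.32% of all genes were called higher and 4.01% lower. The gene not called was Cxcr2. Fitted on these groups alone, edgeR called 2 (Cxcl2 and Cxcl3), and Cxcl1 (adjusted p = 0.209), Cxcl6 (adjusted p = 0.0673) and Pf4 (adjusted p = 0.0968) lost their calls. GelMA against NC called 4 higher (Cxcl2, Cxcl3, Cxcl6 and Pf4) and 0 lower, beside 5.03% and 3.21% of all genes, and 2 when fitted on these groups alone, without Cxcl2 (adjusted p = 0.0710) and Cxcl3 (adjusted p = 0.0843). CTS against NC called 0, with 3 members (Cxcl2, Cxcl3 and Cxcl6) at an unadjusted p under 0.05 and 0 called by DESeq2, in a comparison where 0.155% of all genes were higher and 0.0222% lower. PLA against GelMA called 2 higher (Cxcl2 and Cxcl3), beside 4.61% of all genes, and 0 lower, beside 1.47%. PLA against CTS called 5 higher, beside 6.42%, and 0 lower, beside 3.53%. CTS against GelMA called 3 lower (Cxcl3, Cxcl6 and Pf4), beside 1.32% of all genes, and 0 higher, beside 0.416%. On these groups alone all 6 were called. The 3 fell to 0 when GelMA replicate 2 or 3 or CTS replicate 1 or 2 was left out, and all 6 in 1 direction or the other without NC replicate 2. The GelMA count against NC ranged more widely too, at 2 without GelMA replicate 3 and 6 without NC replicate 2, where Cxcr2 was called lower. The shares of all genes called in these refits are not given here, so the refit counts cannot be set against the shares above. Comparisons with a group in common share its libraries and are not independent. Libraries that did not overlap were counted too. Of the 6 genes, 5 lay higher and 0 lower in PLA against NC (21.9% and 17.2% of all genes did), 4 and 0 in GelMA against NC (19.3% and 11.2%), 1 and 0 in CTS against NC (9.51% and 5.11%), 5 and 0 in PLA against GelMA (27.7% and 30.7%), 5 and 1 in PLA against CTS (26.5% and 27.8%) and 1 and 5 in CTS against GelMA (17% and 19%). Such a gap was thus common among all genes, most of all where PLA with its 2 libraries was compared. The members' median log2 fold change was 3.39 in PLA against NC, 1.95 in GelMA against NC, 0.04 in CTS against NC, 1.29 in PLA against GelMA, 3.59 in PLA against CTS and -1.70 in CTS against GelMA, where the medians over all genes lay between -0.11 and -0.01. Scaled by library size alone, the median over all genes moved to -0.43 in PLA against NC, to -0.58 in PLA against GelMA and to -0.51 in PLA against CTS, and the calls of the members stayed on the same side of the threshold.

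**Figure D3:**
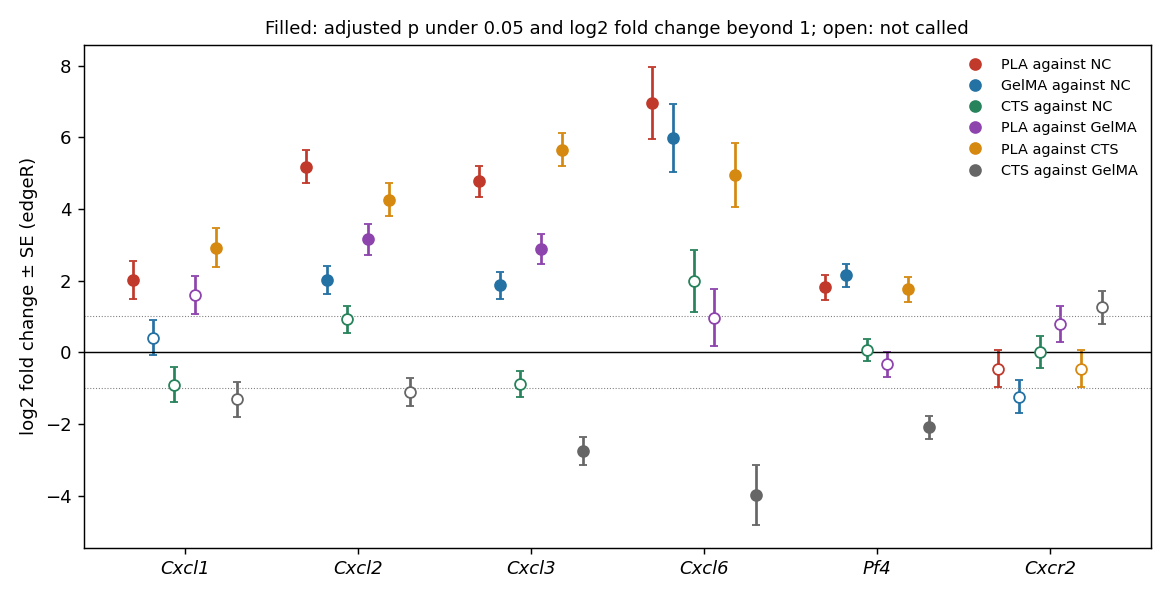
Log2 fold changes from edgeR with their SE (y axis) for the 6 tested genes (x axis) in the 6 comparisons, each a colour, with filled points where a gene was called and open points where it was not. Cxcl2 and Cxcl3 are filled in all 3 comparisons of PLA, at 2.89 to 5.65, and Cxcr2 is open in all 6, at -1.24 to 1.25.

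Ligand and receptor levels were then set against each other within each library. The FPKM of the 5 ligands of Cxcr2 summed to 16231 and 16695 in PLA, 3085, 3564 and 4608 in GelMA, 1653, 1309 and 1612 in CTS, and 1129, 1871 and 1259 in NC. Divided by Cxcr2 in the same library, this gave ratios of 271 and 281 in PLA, 63.7, 65.6 and 96.3 in GelMA, 12.7, 10.3 and 18.5 in CTS, and 6.59, 77.4 and 9.43 in NC. PLA was above GelMA and GelMA above CTS with no overlap, and NC was split, replicate 2 lying among the GelMA libraries and the other replicates below all CTS libraries. A ratio of levels within a library does not depend on how the library is scaled.

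On the log2 scale the group accounted for 79.0% of the variance of this ratio over the 11 libraries (exact permutation test over all 92400 assignments, one-sided for a larger share, p = 0.0131). Without PLA replicate 2 the p was 0.05, at the threshold, and without NC replicate 2 the share was 98.0% (exact p = 0.000317). With Cxcl2 as the sole ligand it was 97.7% (exact p = 0.00013). The TMM-scaled ligand sum by itself gave 95.8% (exact p = 0.000714). Cxcr2 by itself gave 40.5% (exact p = 0.276), and 92.7% without NC replicate 2 (exact p = 0.000794). By geometric mean, the ratio was 16.3-fold higher in PLA than in NC, 20.5-fold higher in PLA than in CTS and 3.73-fold higher in PLA than in GelMA. The ratio in GelMA was 4.37-fold that in NC with overlapping libraries, the difference of the log2 means was -0.33 in CTS against NC, again with overlap, and it was -2.46 in CTS against GelMA without overlap. Single pairs of groups were not tested, since the smallest one-sided p is 0.1 for 2 against 3 libraries and 0.05 for 3 against 3.

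**Figure D4:**
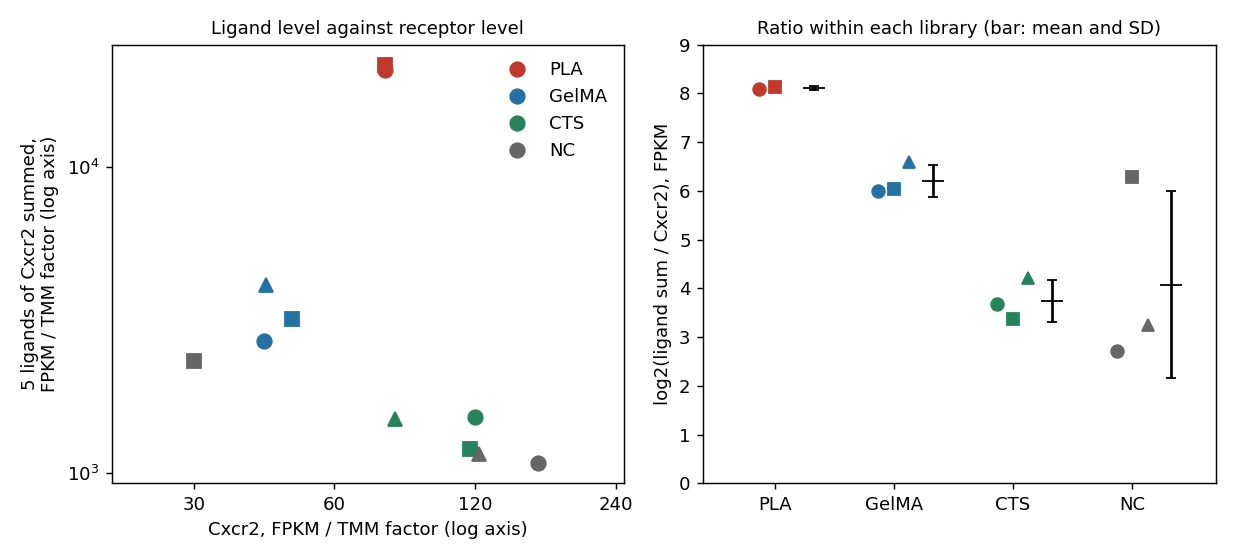
Left, the summed level of the 5 ligands of Cxcr2 (y axis) against the level of Cxcr2 (x axis), as FPKM divided by the TMM factor on log axes, with 1 point per library coloured by group. Right, the log2 ratio of ligand sum to Cxcr2 in each library with the mean and SD of each group: it is 8.08 and 8.13 in PLA, 5.99 to 6.59 in GelMA, 3.36 to 4.21 in CTS and 2.72 to 6.27 in NC.

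The make-up of the ligand sum also differed. Cxcl2 made up 74.9% and 75.8% of it in PLA, 50.2% to 56.6% in GelMA, 53.4% to 67.7% in CTS, and 57.9%, 8.55% and 43.3% in NC. Cxcl1 made up 20.1% and 19.4% in PLA, 38.8% to 45.2% in GelMA and CTS apart from 30.8% in CTS replicate 1, and 39.7%, 88.7% and 54.9% in NC. The level of Cxcl1 over that of Cxcl2 was accordingly 0.268 and 0.257 in PLA, 0.685 to 0.898 in GelMA, 0.455 to 0.847 in CTS, and 0.685, 10.4 and 1.27 in NC. Both PLA libraries had the lowest ratio, and NC replicate 2, with its high fibroblast markers, the highest. Cxcl3 held 4.81% and 4.51% in PLA and 3.90% to 4.04% in GelMA, above the 1.16% to 1.77% of CTS and the 1.75% to 2.72% of NC. Cxcl6 was at most 1.06%, in GelMA replicate 1, and Ppbp at most 0.0783%, in NC replicate 1. All 8 genes together took 1.77% and 1.82% of the counts in PLA, 0.333% to 0.495% in GelMA, 0.153% to 0.192% in CTS and 0.141% to 0.183% in NC.

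**Figure D5:**
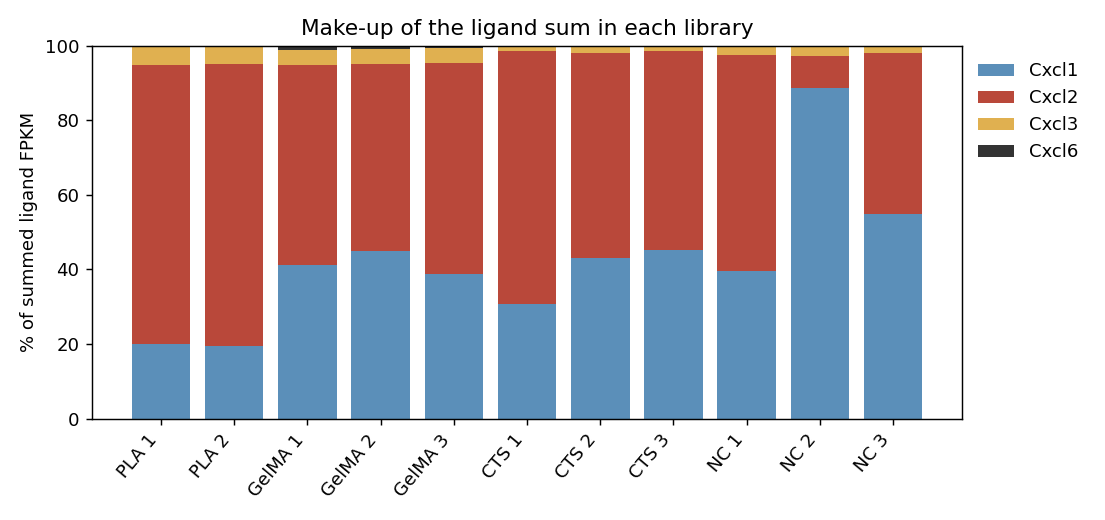
Share of each ligand (y axis, % of the summed FPKM of Cxcl1, Cxcl2, Cxcl3, Cxcl6 and Ppbp) in each of the 11 libraries (x axis); Ppbp, at most 0.0783%, is not drawn. Cxcl2 fills about 75% of the bar in both PLA libraries, and Cxcl1 fills 88.7% in NC replicate 2.

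Genes that raise neutrophil numbers or let neutrophils out of vessels were described beside the ligands. Of 16 such genes, 8 were higher and 0 lower in PLA than in NC, beside 8.32% and 4.01% of all genes. In GelMA against NC 5 were higher and 2 lower, beside 5.03% and 3.21%. In CTS against NC 1 was higher, beside 0.155%. PLA also had 8 higher than GelMA, beside 4.61%, and 9 higher than CTS, beside 6.42%. In both, 0 were lower, beside 1.47% and 3.53%. Tnf, the cytokine tumor necrosis factor, was at 478 ± 84.7 FPKM after TMM scaling in PLA (SD, n = 2), 74.3 ± 34.0 in GelMA, 19.5 ± 10.97 in CTS and 7.06 ± 1.91 in NC (n = 3 each). Its log2 fold change in PLA against NC was 6.08 ± 0.55 (adjusted p = 9.33e-05). Il1a, the gene of interleukin 1 alpha, reached 857 ± 47.9 FPKM in PLA, 168 ± 42.1 in GelMA, 40.4 ± 4.84 in CTS and 12.7 ± 3.42 in NC, with 6.08 ± 0.30 in PLA against NC (adjusted p = 1.51e-05), and it was the gene of this list called in CTS against NC (1.67 ± 0.25, adjusted p = 0.0474). Csf3, the growth factor of neutrophils, was at 71.8 ± 10.3 FPKM in PLA, 14.8 ± 4.08 in GelMA, 2.25 ± 0.590 in CTS and 2.05 ± 0.282 in NC. PLA stood highest and GelMA next in all 3 genes, as for Cxcl2 and Cxcl3. The 3 were named for the largest called rises in PLA against NC, so their high PLA level was set by that choice. By group mean, Csf2, Il1b, Icam1 and Ptafr held this order too. Csf1, Il17a, Il6, Osm, Sele, Selp, Vcam1, C5ar1 and Ltb4r did not.

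Of the other CXC chemokines and receptors, PLA against NC called 4 of 14 higher, beside 8.32% of all genes. Of the 3 receptors named here GelMA had the highest mean. Cxcr6, the receptor of Cxcl16 on T cells, was at 7.64 ± 0.736 FPKM after TMM scaling in PLA, 19.6 ± 3.01 in GelMA, 2.57 ± 1.42 in CTS and 0.324 ± 0.285 in NC, and its log2 fold change in PLA against NC was 4.54 ± 0.83 (adjusted p = 0.00562). Cxcr3, the receptor of Cxcl9 and Cxcl10 on T cells, was at 4.65 ± 1.24 FPKM in PLA, 18.6 ± 2.75 in GelMA, 3.63 ± 2.55 in CTS and 0.738 ± 0.298 in NC. It was called higher in PLA than in NC (2.65 ± 0.53, adjusted p = 0.00834) and lower in PLA than in GelMA (a difference of -2.001 ± 0.54, adjusted p = 0.0461). Cxcr5, the receptor of Cxcl13 on B cells, gave 2.90 ± 0.69 in PLA against NC (adjusted p = 0.0187). In GelMA against NC, 5 of the 14 were called higher and 1 lower, beside 5.03% and 3.21% of all genes. CTS against NC called 0, beside 0.155% higher and 0.0222% lower. PLA against CTS called 0 too, beside 6.42% and 3.53%.

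Of 22 genes that carry or dampen the signal of Cxcr2 inside the cell, 5 were higher and 1 lower in PLA than in NC. Of all genes, 8.32% were higher and 4.01% lower. Lyn, a Src-family kinase, was higher by 1.81 ± 0.36 (adjusted p = 0.00878), Pik3r5, a regulatory subunit of phosphoinositide 3-kinase gamma, by 1.78 ± 0.43 (adjusted p = 0.0194) and Prex1, a Rac exchange factor, by 1.74 ± 0.29 (adjusted p = 0.00301). Rgs18, which shortens G protein signals in blood cells, was lower with -1.51 ± 0.44 (adjusted p = 0.0449). The median of the list was 0.36 in this comparison. GelMA against NC called 3 higher and 0 lower, beside 5.03% and 3.21% of all genes. CTS against NC called 0, beside 0.155% and 0.0222%. PLA against GelMA called 1 higher, beside 4.61%. PLA against CTS called 1 higher and 1 lower, beside 6.42% and 3.53%. CTS against GelMA called 0, beside 0.416% higher and 1.32% lower.

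Markers of other cells that can make these chemokines were counted as well. Of 11 monocyte and macrophage markers tested, PLA against NC called 5 higher, GelMA against NC 9 and CTS against NC 1. The shares of all genes called higher there were 8.32%, 5.03% and 0.155%. PLA against GelMA called 0 higher and 2 lower, beside 4.61% and 1.47% of all genes. PLA against CTS called 3 higher and 0 lower, beside 6.42% and 3.53%. CTS against GelMA called 0 higher and 4 lower, beside 0.416% and 1.32%. Msr1, a scavenger receptor of macrophages, was higher in PLA than in NC by 3.71 ± 0.37 (adjusted p = 0.000167), Adgre1, the F4/80 antigen, by 2.80 ± 0.23 (adjusted p = 5.75e-05) and Cd14, a coreceptor for endotoxin, by 1.93 ± 0.18 (adjusted p = 0.000125). Adgre1 was lower in PLA than in GelMA (-1.59 ± 0.24, adjusted p = 0.00306). The summed level over 12 genes was 2772 to 3248 FPKM after TMM scaling in PLA, 3538 to 6061 in GelMA, 7248 to 9153 in CTS and 1832 to 7598 in NC, with Marco at 0 in all PLA, GelMA and NC libraries. Lyz2, a lysozyme gene that neutrophils use too, made up 80.8% to 97.7% of that sum, and the other 11 genes summed to 528 and 541 FPKM in PLA, 669 to 761 in GelMA, 318 to 402 in CTS and 143 to 173 in NC, without overlap between groups. Of 12 fibroblast and mesenchymal markers, 1 (Runx2) was called higher in GelMA against NC, beside 5.03% of all genes. In CTS against GelMA 1 was called lower, again Runx2, beside 1.32%, and the other 4 comparisons called 0. The summed level of the 12 was 6244 to 9071 FPKM in PLA, 5888 to 6030 in GelMA, 5360 to 8919 in CTS and 2335 to 51883 in NC. Among 11 platelet markers tested, 2 were higher in PLA than in NC, beside 8.32% of all genes. Of these 2, Vwf (1.47 ± 0.35, adjusted p = 0.0186) is also a gene of endothelium. The part of any of these cells in the chemokine levels was not tested.

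Over the 11 libraries, the genes most like Cxcl2 in log2 CPM, among 9662 well-expressed genes, were Irak2 (Pearson r = 0.997), Pik3ap1 (0.995), Rnf149 (0.995), Ccl3 (0.994) and Pde4b (0.994). Irak2 is a kinase of the interleukin 1 receptor pathway and Ccl3 a chemokine of the CC class. Among those most like Cxcr2 were Gsr (0.992), the gene of glutathione reductase, B4galt6 (0.984), Mxi1 (0.980) and Lrg1 (0.976). These r values describe libraries that share groups, depth and scaling.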

How the data were processed

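Bulk RNA-seq libraries of PLA, GelMA, CTS and NC were analysed from tables of counts per gene that the authors deposited, with an FPKM table of the same genes. The submitters' processing notes name fastp, HISAT2, HTSeq and DESeq and the assembly mRatBN7.2, and versions and strand settings are not given in the sources used here. Dividing each count by the length of its gene and the sum of its library gave the deposited FPKM with a largest relative deviation of 1.0893e-06 over 205408 values, so FPKM holds no composition factor. Reads shared between the alike Cxcl1, Cxcl2 and Cxcl3 were not analysed here.

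Counts were fitted in R 4.3.3 with edgeR 4.0.16 (filterByExpr with a minimum count of 10, TMM, robust quasi-likelihood, group as the only term, all 11 libraries in 1 fit), which left 18049 genes and 6 of the 8 members. The SE is the size of the log2 fold change over the square root of F. Benjamini-Hochberg adjustment covered all genes tested. Ratios and levels over groups were tested by exact permutation of libraries, with log2 of TMM-scaled FPKM for levels. Alternatives used RLE factors, library size alone, no filter, DESeq2 1.42.0, limma 3.58.1 on log2(FPKM + 1) or with a pseudocount of 0.1, only the groups compared, a replicate block, and each library left out. The edgeR fit was run on simulated data, where recovery of set changes was required only at a low spread. The spread of these libraries was simulated too, but no recovery was required there and the outcome is not reported here. Intervals of counts at the floor of 3 cover counting error only. All members are named. From each list up to 3 genes per direction are given with values. These had the largest called changes in PLA against NC where the average log2 CPM reached 3. The 5 genes most like Cxcl2 and Cxcr2 are given too. Some items that fall under these rules are not reported here. The members and lists were chosen with earlier results of these data known. Columns of all 11 libraries matched their labels, and no pair of libraries looked like a duplicate (highest correlation of log2 counts 0.974).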

Additional observations from a re-analysis of the deposited data

How the results depend on the processing

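Fitted on the compared groups alone, edgeR called 2 members in PLA against NC (Cxcl2 and Cxcl3), 2 in GelMA against NC (Cxcl6 and Pf4) and 6 in CTS against GelMA. The shares of all genes called in these fits, and in those that leave a library out, are not given here. With each library left out in turn the number called ranged from 4 to 5 in PLA against NC, 2 to 6 in GelMA against NC, 0 to 0 in CTS against NC, 2 to 3 in PLA against GelMA, 4 to 5 in PLA against CTS and 0 to 6 in CTS against GelMA. The group share of the variance ranged from 72.6% to 98.0% for the ligand to receptor ratio (exact p = 0.000317 to 0.05), 93.2% to 98.9% for the ligand level and 32.8% to 92.7% for Cxcr2 (exact p = 0.000794 to 0.453). The sign of uncalled values near 0 turned: Cxcr2 in CTS against NC was -0.0448 with RLE factors, -0.00784 without the filter, -0.0448 by DESeq2 and -0.0222 on the 2 groups alone, and without single libraries ranged from -0.43 to 0.47. In CTS against NC, Cxcl1 ranged from -1.28 to 0.0655 and Pf4 from -0.25 to 0.28, and Cxcr2 in PLA against NC from -0.90 to 0.0115. DESeq2 also called Cxcr2 in GelMA against NC (-1.31, adjusted p = 0.0371) and Cxcl1 in PLA against GelMA (1.65, adjusted p = 0.02). Cxcl6 in CTS against GelMA was lost without the filter (adjusted p = 0.0650). The cause of these changes was not tested beyond the libraries left out.

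Deviations from the group means were correlated between libraries of different groups. With the same replicate number, 1 of 15 correlations was over 0.1 (range -0.108 to 0.118). With different numbers it was 2 of 30 (range -0.191 to 0.258). Such deviations cancel out within a group, so these correlations are tied to each other and cannot exclude pairing. The numbers were not used as pairs. With a replicate block, Cxcl6 in CTS against GelMA was lost (-3.93, adjusted p = 0.1), the ratio gave an exact p of 0.0313 within replicate numbers, and no other member changed its call. PLA had 2 libraries, and Ppbp and Cxcr1 had too few counts for a comparison at this depth.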
